A study of Homo sapiens with 18 samples.

Results

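RT-112 and HT-1376, both established cell lines from human bladder carcinoma, were compared gene by gene to describe what sets their transcriptomes apart. The 12 libraries compared are all those of these lines among 18 in all (6 for each of RT-112, HT-1376 and CAL-29, another bladder cancer line that is quoted only where it gives context). CAGE-seq, an assay that captures RNA by its cap and reads the 5′ end, gave a level for each gene in CPM, the share of a library's reads scaled to a fixed total. The study changed the tumour suppressor WWOX and the transcription factors AP-2α and AP-2γ in each line. Each line has the same 6 variants with 1 library each. KK cells received empty vectors in both transductions, KA received AP-2α and KC AP-2γ in the second transduction, and WK, WA and WC carry WWOX from the first transduction with an empty vector, AP-2α or AP-2γ from the second. All 12 libraries therefore come from cells that were transduced with lentiviral vectors with a CMV promoter and kept under puromycin and G418. WK, WA and WC of a line share a population transduced with WWOX, so WWOX itself and that population cannot be told apart. RT-112 was grown in RPMI-1640 with 10% serum and HT-1376 in high-glucose DMEM with 15% serum, so that medium and line cannot be told apart either. The 6 libraries of a line differ in their transduced genes, and nothing in the labels makes them separate cultures of one condition. The p-values below therefore measure a difference between the lines only against the spread among these libraries.

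In the urothelium, basal cells carry the keratins KRT5 and KRT14 and the factor TP63, and the luminal cells above them carry uroplakins under the control of PPARG, GATA3 and FOXA1. Bladder carcinomas are commonly sorted into luminal and basal or squamous types along this axis, and FGFR3 and the loss of the CDKN2A locus are well known from the luminal papillary tumours. TFF1, a trefoil peptide that mucosal cells secrete with mucus, and CDKN2A, which encodes an inhibitor of CDK4 and CDK6 as well as the MDM2 antagonist ARF, were the genes given to mark RT-112 and HT-1376.

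The labels were checked against the transduced genes, although a vector transcript need not start at the native promoter of the gene. TFAP2C, which encodes AP-2γ, had 58, 49.4, 264, 56.2, 179.9 and 143 CPM in RT-112 (in the order KK, KA, KC, WK, WA, WC) and 158, 172, 214, 69, 98 and 163 CPM in HT-1376 in that order. It was high in the library labelled RT-112 WA, which should carry AP-2α, as it was in the AP-2γ libraries of that line. TFAP2A, which encodes AP-2α, was highest in KA of both lines (46.8 and 101 CPM), and its values in RT-112 (18, 20.7 and 46.8 CPM as lowest, median and highest) lay below all of those in HT-1376 (56, 71.4 and 101 CPM). WWOX ranged from 18.4 to 26 CPM in RT-112 and from 16.9 to 24.7 CPM in HT-1376 and was not raised in the WWOX libraries of either line. The libraries held 13357102 to 17958572 reads on genes. A gene without reads could still have had up to 3 of them, or 0.158 to 0.213 CPM, a limit for counting error alone. The median correlation of a library with the others of its line, across genes on the log2 scale, was 0.973 to 0.987 in RT-112 and 0.907 to 0.932 in HT-1376, against 0.703 to 0.772 with the libraries of the other line. Of the 19 genes listed as markers of other cell types, 14 are not in the table, among them PTPRC, PECAM1 and ALB, and 3 stayed under 5 CPM.

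TFF1 (chromosome 21, 42362282 to 42366535, GENCODE 44 on GRCh38) was present in all RT-112 libraries, at 23.5, 29.4, 25.6, 46.6, 23.4 and 23.1 CPM in the order KK, KA, KC, WK, WA, WC. In HT-1376 it had 7 reads over 6 libraries and at most 0.23 CPM. CDKN2A (chromosome 9, 21967752 to 21995301) showed the opposite pattern, with 262, 219.6, 294, 493, 513 and 418 CPM in the same order in HT-1376. In RT-112 it had 6 reads over 6 libraries, of which 5 came from KA, and 4 libraries were at 0. Neither gene overlapped between the lines in any library, and the lowest library of the line where the gene was on stood far above the highest of the other.

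Transcript starts of a gene are read by CAGE, so the windows of 250 bases before the RefSeq start (GRCh38.p14) are printed below for the genes that best show this contrast, where the table of windows held an entry. CDKN2A (chr9:21995325-21995574, minus strand) stands for the genes on in HT-1376 only, and FOXA1 (chr14:37595250-37595499, minus strand), the pioneer factor of luminal cells, for those on in RT-112 only. KRT4 (chr12:52814117-52814366, minus strand), a keratin of stratified mucosa, is among the largest differences, and EREG (chr4:74364895-74365144, plus strand) encodes an EGFR ligand that was on in HT-1376 only. Capitals mark matches on either strand to any of 7 motifs, whose occurrences may overlap. These were the TATA box with the letters TATAAA, the site of AP-2 factors with the letters GCCNNNGGC, the site of AP-1 with the letters TGANTCA and that of GATA factors with the letters AGATAA. The GC box with the letters GGGCGG, the CCAAT box and the forkhead site with the letters TGTTTAC were searched as well.
CDKN2A: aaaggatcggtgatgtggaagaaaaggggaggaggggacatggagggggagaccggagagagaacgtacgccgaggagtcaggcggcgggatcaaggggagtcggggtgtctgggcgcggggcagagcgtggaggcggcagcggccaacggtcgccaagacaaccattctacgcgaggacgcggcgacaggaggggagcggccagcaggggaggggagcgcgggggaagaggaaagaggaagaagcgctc
FOXA1: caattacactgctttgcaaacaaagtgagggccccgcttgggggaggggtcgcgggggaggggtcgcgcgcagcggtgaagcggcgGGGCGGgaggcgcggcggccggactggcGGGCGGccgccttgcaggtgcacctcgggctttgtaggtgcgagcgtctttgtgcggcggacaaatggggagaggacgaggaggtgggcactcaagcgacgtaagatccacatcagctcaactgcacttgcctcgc
KRT4: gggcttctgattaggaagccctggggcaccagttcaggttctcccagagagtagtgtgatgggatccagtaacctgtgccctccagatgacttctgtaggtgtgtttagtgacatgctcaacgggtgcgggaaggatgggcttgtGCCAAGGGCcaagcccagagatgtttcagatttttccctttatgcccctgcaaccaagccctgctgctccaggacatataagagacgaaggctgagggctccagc
EREG: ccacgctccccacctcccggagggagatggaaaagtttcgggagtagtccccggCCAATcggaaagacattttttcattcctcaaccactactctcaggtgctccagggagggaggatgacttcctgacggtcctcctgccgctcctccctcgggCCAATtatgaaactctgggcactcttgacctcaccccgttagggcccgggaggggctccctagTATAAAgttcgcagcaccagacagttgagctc
The window of CDKN2A held none of the motifs and had a CpG ratio (observed over expected) of 1.08. CDKN2A also starts from an alternative exon further downstream, and the CPM does not separate the starts. FOXA1 held GGGCGG at 164 and 136 bases before the start, a motif found in 42.3% of all 27305 windows of this length. EREG held TATAAA at 32 bases before the start, found in 11.1% of windows, and CCAAT at 196 and 95 bases, found in 33% of windows. KRT4 held GCCNNNGGC at 105 bases, found in 19.7% of windows, and had a CpG ratio of 0.161. The other motifs are found in 6.6% (TGANTCA), 9.37% (AGATAA) and 2.98% (TGTTTAC) of windows. A match describes letters only and is not a site of binding.

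A gene was called on in 1 line only where each of its 6 libraries there had at least 5 CPM and each library of the other line had under 0.5 CPM. By this rule 64 genes were on in RT-112 only and 138 in HT-1376 only. These genes were chosen by their measured levels, so the lists are described and not tested. Of the 64, 55 are protein coding and 6 are long non-coding RNAs, and of the 138 these are 106 and 25. At the edge of the rule, HOXB6 was just inside for RT-112 with 0.49 CPM in its highest HT-1376 library, while HOXB4 (0.5 CPM) and KRT4 (0.51 CPM) were just outside. For HT-1376, HPSE was just inside (0.49 CPM in RT-112) and ZBTB47 (0.5 CPM) just outside, and on the side of the lower limit for the line where the gene is on, EVC2 was inside with 5.04 CPM and CTAG1A outside with 4.99 CPM.

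**Figure D1:**
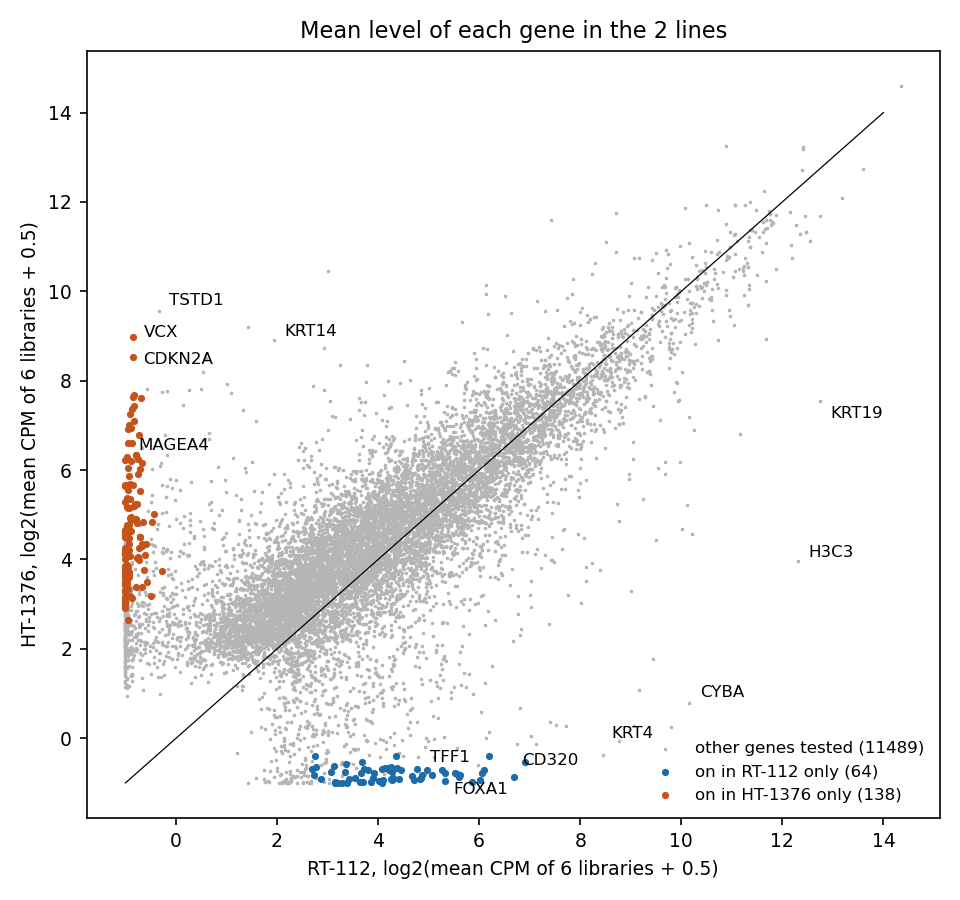
Each point is 1 of the 11691 genes tested, with the mean of the 6 RT-112 libraries on the x axis and of the 6 HT-1376 libraries on the y axis, both as log2(CPM + 0.5), and the line marks equal levels. The 64 genes on in RT-112 only lie along the bottom, up to a mean of 119.9 CPM, and the 138 genes on in HT-1376 only lie along the left side, up to 502.9 CPM.

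Genes on in RT-112 only had a median of 18.3 CPM over the 64 means, and 7 reached 50 CPM. The highest was VILL, a villin-like actin-binding protein, with 107, 119 and 146 CPM as the lowest, median and highest library, against at most 0.45 CPM in HT-1376. CD320, the receptor that takes up vitamin B12 bound to transcobalamin, followed with 92.7, 103 and 111 CPM. GNG4, a G protein γ subunit, had 61, 72.7 and 83.2 CPM. None of the 3 differed by as much as 2-fold among the RT-112 libraries. The next in order were BATF, a factor of the AP-1 family (55.3, 62.7 and 85.3 CPM), the orphan receptor GPR78 (50.4, 65.9 and 78.6 CPM) and the centromere protein CENPV (52.8, 66.1 and 76.5 CPM). ALDH3A1, an aldehyde dehydrogenase of epithelia, was less even, with 53.6, 33.5, 31.2, 27, 152 and 45.1 CPM in KK, KA, KC, WK, WA and WC. PLA2G2A, a secreted phospholipase, reached its highest level, 122 CPM, in WK and had at most 0.16 CPM in HT-1376. IRX3, a homeobox factor, and STRA6, which carries retinol into cells, completed the 10 highest, with medians of 44.8 and 43.9 CPM. Over the 64 genes the highest library exceeded the lowest by a median of 1.66-fold, and for 4 genes by 4-fold or more.

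Genes on in HT-1376 only had a median of 21.8 CPM over the 138 means, and 29 reached 50 CPM. VCX, a gene of male germ cells on chromosome X, was the highest, with 327, 449 and 844 CPM as the lowest, median and highest library. Its RT-112 libraries held 6 reads in all. PAGE5, another germ cell gene of chromosome X, had 88.8, 208 and 351 CPM, and GTSF1, a factor of the piRNA pathway in germ cells, had 72, 141 and 179 CPM. PNMA5 (105, 129 and 159 CPM) and TUBA3C, an α-tubulin gene with near-identical copies (95.5, 148 and 208 CPM), were of the same order. MT1G, a metallothionein, was less even, with 57.1, 362, 420.3, 52.2, 229 and 73.9 CPM in KK, KA, KC, WK, WA and WC. IGFBP7, a secreted protein that binds insulin-like growth factors, had 83.2, 205 and 283 CPM, and IRX2-DT, a divergent transcript beside the homeobox gene IRX2, had 83.4, 146 and 314 CPM. HLA-G, a non-classical MHC class I gene, completed the 10 together with CDKN2A, and its WWOX libraries (197 to 409.6 CPM) were separate from those without WWOX (39.3 to 54.9 CPM). Over the 138 genes the highest library exceeded the lowest by a median of 2.23-fold, and for 26 genes by 4-fold or more. The difference in evenness between the lists was not tested, and the correlations among libraries were also lower in HT-1376.

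**Figure D2:**
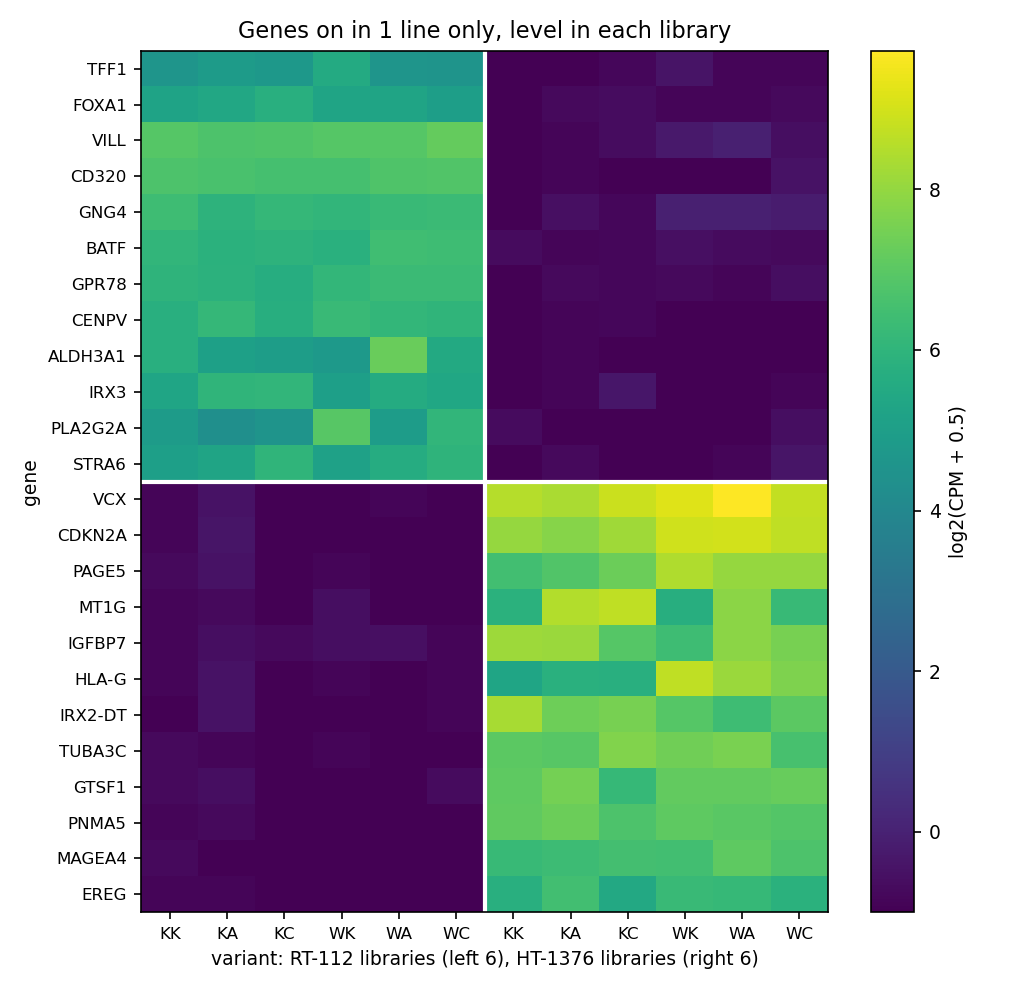
Level of genes on in 1 line only as log2(CPM + 0.5), with 1 column per library and variant names below, RT-112 on the left and HT-1376 on the right. The upper genes, from TFF1 to STRA6, have at most 0.46 CPM in any HT-1376 library, and the lower genes, from VCX to EREG, have at most 0.26 CPM in any RT-112 library.

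Of the 138 genes on in HT-1376 only, 21 lie on chromosome X, which is 5.98% of its 351 genes tested, against 1.18% of all genes tested and 0% to 2.78% on the other chromosomes. None of the 64 genes on in RT-112 only, which were 0.547% of all genes tested, lie there. MAGEA12, CSAG4 and MAGEA6 are neighbours on chromosome X, as are PAGE2B and PAGE2, and XAGE1A and XAGE1B. Elsewhere CEACAM5 and CEACAM6 on chromosome 19, and TBX2 and its antisense gene TBX2-AS1 on chromosome 17, were neighbours on in RT-112 only. MTAP, CDKN2A and CDKN2B on chromosome 9, EPGN and EREG on chromosome 4, and IRX2, IRX2-DT and LINC01019 on chromosome 5 were neighbours on in HT-1376 only. Those named here beyond the 10 highest were chosen after their values were seen, and overlapping genes such as MAGEA12 and CSAG4 carry the same values in the table and are not separate measurements. The VCX, PAGE2 and XAGE1 genes have near-identical copies, so their separate values are uncertain. Whether strand entered the assignment to genes is not given in the sources used here, so TBX2 and TBX2-AS1 may share reads.

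CAL-29 was not used to choose these genes. The library labelled CAL-29 KC was left aside here, because 134 of the 138 genes on in HT-1376 only and none of the 64 of RT-112 had at least 5 CPM in it. In the other 5 CAL-29 libraries, 27 of the 64 genes on in RT-112 only (42.2%) had at least 5 CPM throughout, 5 were under 0.5 CPM throughout and 32 lay between. Of the 138 genes on in HT-1376 only, 41 (29.7%) had at least 5 CPM in all 5 CAL-29 libraries and 57 (41.3%) were under 0.5 CPM in all 5. The same shares over all genes tested are not given here, so likeness of CAL-29 to either line was not tested. FOXA1 (a mean of 97.3 CPM) and STRA6 (115 CPM) were on in CAL-29 as in RT-112, and IGFBP7 (213 CPM) as in HT-1376. TFF1 and CDKN2A were low there, with means of 0.41 and 0.124 CPM.

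The genes around CDKN2A were followed along chromosome 9 from FOCAD to TUSC1 to see how far its absence in RT-112 extended. This stretch was chosen after its values were seen. Of its 12 genes, 6 were at 0 in all RT-112 libraries, namely HACD4, MIR31HG, MTAP, CDKN2B-AS1, CDKN2B and DMRTA1, and each of the 6 had reads in at least 1 HT-1376 library. MTAP, which salvages adenine and methionine, had 5.39 to 13.2 CPM in HT-1376, and its mean of 10.6 CPM was at least 63.6-fold above the limit of 3 reads per library in RT-112. CDKN2B, a CDK inhibitor beside CDKN2A, had 19.1 to 29.7 CPM, with a mean of 24.1 CPM that was at least 145-fold above this limit. The long non-coding gene MIR31HG had 4.31 to 14.5 CPM. DMRTA1 reached only 0.32 CPM in HT-1376, so a difference was not detectable at this depth. KLHL9, which lies between HACD4 and MIR31HG, was present in RT-112 at 4.68 to 7.15 CPM, and FOCAD (9.52 to 18.5 CPM) and TUSC1 (26.5 to 46.7 CPM) were present on either side. ELAVL2, the next gene of the table after DMRTA1, had 1.42 to 2.12 CPM in RT-112 and at most 0.26 CPM in HT-1376. In the 5 CAL-29 libraries other than KC, MTAP, MIR31HG, CDKN2B-AS1 and DMRTA1 were also at 0, and CDKN2B had at most 0.11 CPM. CAGE-seq measures RNA, so these values do not tell whether DNA is missing.

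**Figure D3:**
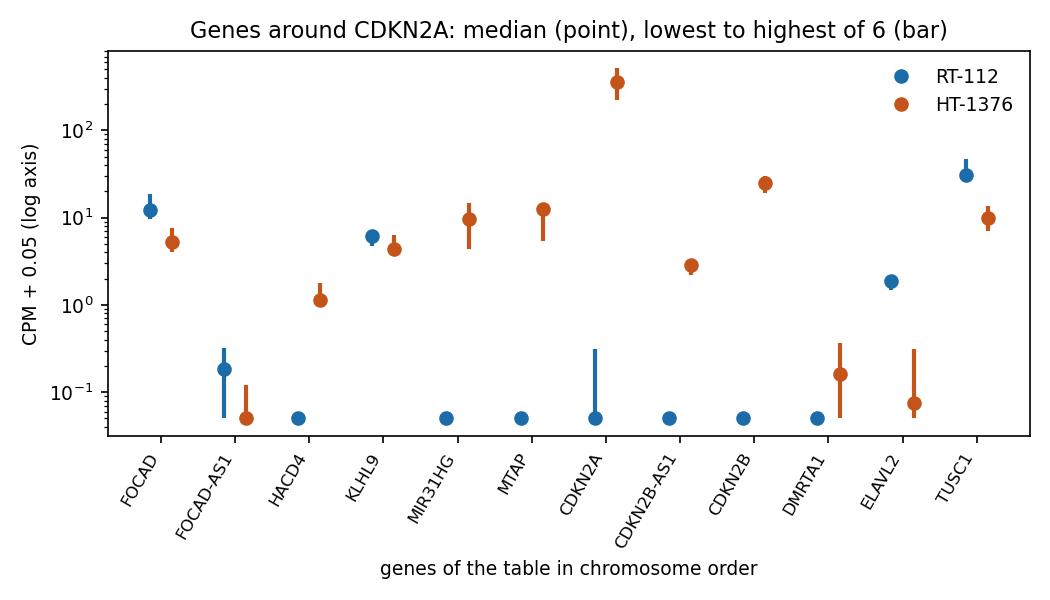
Levels of the 12 genes of the table from FOCAD to TUSC1, in chromosome order on the x axis, as CPM + 0.05 on a log axis, with the median of 6 libraries as a point and the lowest to highest library as a bar. From MIR31HG to DMRTA1 the RT-112 medians are 0, drawn at 0.05, while KLHL9 and TUSC1 are present in both lines.

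The lines were then compared over all 11691 genes that reached 5 CPM in any of the 12 libraries, on log2(CPM + 0.5), with limma and the variant as a block. Differences are given as RT-112 minus HT-1376, and a gene was called where its adjusted p was under 0.05 and its log2 difference was beyond 1. With the deposited scaling, 1293 genes (11.1%) were called higher in RT-112 and 3436 (29.4%) higher in HT-1376. The libraries of the lines did not overlap for 5369 genes (45.9%). This split depends on scaling, since the median difference of all genes was −0.45 in the deposited CPM. TMM scaling brought it to −0.14, that is 0.31 higher. With TMM 1827 genes were called higher in RT-112 and 2425 in HT-1376, so that RT-112 took 43% of the calls in place of 27.3%, and with quantile normalization it took 49.4%. No called gene changed sign with TMM, and 3718 of the 4729 were called in the same direction. Differences below are therefore to be read against a median of −0.45.

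Among the largest differences in favour of RT-112 were histone, oxidase and keratin genes. H2BC3, a replication-dependent histone gene, had 504, 938 and 1184 CPM in RT-112 and 0.23, 0.725 and 0.96 CPM in HT-1376 as lowest, median and highest library (log2 difference 9.52, SE 0.23, limma adjusted p = 5.36e-09). The neighbouring H3C3 had 4046, 5170 and 5746 CPM and 0.75, 10.1 and 42.3 CPM, and both belong to a family of near-identical genes. CYBA, a subunit of the NADPH oxidase, had 1049, 1136 and 1265 CPM and 0.46, 1.06 and 2.68 CPM, a difference of 9.49. In none of these did a library of one line reach the other. ALDH1A3, which makes retinoic acid, was at 450.1, 511 and 699 CPM in RT-112 and at most 1.13 CPM in HT-1376, and GPX2, a glutathione peroxidase of epithelia, at 608, 671 and 825 CPM and at most 7.51 CPM. COL4A2, a chain of basement membrane collagen, had 169 to 261 CPM against at most 1.75 CPM.

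In favour of HT-1376 the largest difference was that of TSTD1, a sulfurtransferase, with 0.05, 0.23 and 0.68 CPM in RT-112 and 498, 779 and 944 CPM in HT-1376 (log2 difference −9.91, SE 0.24, limma adjusted p = 5.36e-09). NUPR1, a chromatin protein induced by stress, had 0.32, 0.805 and 1.93 CPM and 209.7, 316 and 579 CPM, a difference of −7.94. CRCT1, a gene of the epidermal differentiation complex, had at most 0.63 CPM in RT-112 and 109, 151 and 574 CPM in HT-1376. The lines did not overlap for any of these genes.

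For the programs below, gene lists were taken from textbook knowledge, and members that are not in the table or stayed under 5 CPM in all 12 libraries are counted apart. A gene that is present in 1 line only passes the filter through that line, so a high share of calls among the members tested does not by itself set a list apart. Medians are to be read beside the −0.45 of all genes. Counts called are to be read beside the 11.1% of all genes called higher in RT-112 and the 29.4% called higher in HT-1376.

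Of 26 luminal urothelial genes, 20 were tested, 12 were called higher in RT-112 and none in HT-1376, with a median difference of 1.29 (1.61 with TMM). Among the variants without WWOX alone 9 were called higher in RT-112 and 2 in HT-1376. FOXA1 had 31.5, 37.7 and 53.3 CPM in RT-112 and 8 reads over the 6 HT-1376 libraries. TBX2, a T-box factor, had 11.8, 14.4 and 17.8 CPM against at most 0.23 CPM, and the uroplakin gene UPK1A, at 0 throughout HT-1376, had 6.68 to 12.5 CPM, with a mean of 8.74 CPM that was at least 47.3-fold above the limit. All 3 were on in RT-112 only. UPK2, another uroplakin, had 26.7, 32.1 and 43.7 CPM in RT-112 and 0.21, 0.38 and 0.79 CPM in HT-1376 (log2 difference 5.15, SE 0.21, limma adjusted p = 9.46e-08). FABP4, a fatty acid carrier induced by PPARG, had 279, 539, 96.4, 1306, 752 and 470.0 CPM over the variants of RT-112 and at most 3.01 CPM in HT-1376, so that it varied widely within RT-112 but did not overlap. The uroplakin UPK1B (−0.08, SE 0.33) and ADIRF, a regulator of fat cell differentiation (0.64, SE 0.26), overlapped between the lines and were not called. Of the other luminal factors introduced above, PPARG was called (log2 difference 1.10), and GATA3 (0.94) overlapped and was not called. The luminal genes KRT20 and UPK3A had at most 0.37 and 0.11 CPM in either line. These 4 genes were named after their values were seen.

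Basal genes went both ways. Of 22 tested among 26, 4 were called higher in RT-112 and 10 in HT-1376, with a median of −1.03 (−0.75 with TMM, when these counts were 5 and 7). The basal keratin KRT14 had 1.98, 3.62 and 4.27 CPM in RT-112 and 346, 434 and 766 CPM in HT-1376 (log2 difference −6.95, SE 0.19, limma adjusted p = 6.7e-09), and no library overlapped. The desmosomal cadherins DSC2 and DSC3 differed by −4.15 (SE 0.26) and −3.15 (SE 0.31). In contrast KRT17, a keratin of activated basal cells, was higher in RT-112, with 724, 878 and 1753 CPM against 2.7, 26 and 48.5 CPM (log2 difference 5.71, SE 0.43, limma adjusted p = 4e-06). KRT5, the partner of KRT14, was also higher in RT-112, with 17.7, 24.3 and 48.4 CPM against 0.2, 6.39 and 10.7 CPM. Among the basal keratins named here, then, KRT14 was higher in HT-1376 and KRT17 and KRT5 in RT-112. ITGB4, the β4 integrin of hemidesmosomes, overlapped between the lines and was not called (log2 difference 0.37, SE 0.20). The basal factor TP63, named after its values were seen, also overlapped and was not called (−0.42).

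The late squamous list also split. Of 17 tested among 26, 3 were called higher in RT-112 and 10 in HT-1376, with a median of −1.69 (−1.37 with TMM). The mucosal keratins KRT13 and KRT4 form a pair in non-cornified stratified epithelia, and KRT13 had 396, 433 and 479 CPM in RT-112 and 0.07, 0.385 and 1.15 CPM in HT-1376 (log2 difference 8.93, SE 0.20, limma adjusted p = 4.91e-09). KRT4, whose window is printed above, had 235, 304 and 531 CPM and 0.11, 0.25 and 0.51 CPM. S100A7 and SPRR2D stood the other way. S100A7, an antimicrobial calcium-binding protein of keratinocytes, had 0.72, 3.16 and 13.5 CPM in RT-112 and 144, 541 and 1334 CPM in HT-1376 (log2 difference −6.78, SE 0.41, limma adjusted p = 1.09e-06). SPRR2D, a precursor of the cornified envelope from a family of near-identical genes, had at most 0.22 CPM in RT-112, and in HT-1376 1.32 to 5.84 CPM without and 84.7 to 199 CPM with WWOX. Among the 3 variants without WWOX the median of the list was −0.25 over 13 members tested, and among the 3 with WWOX −3.13 over 17. S100A9, the partner of S100A8, was abundant in both lines and overlapped (−0.19, SE 0.51).

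**Figure D4:**
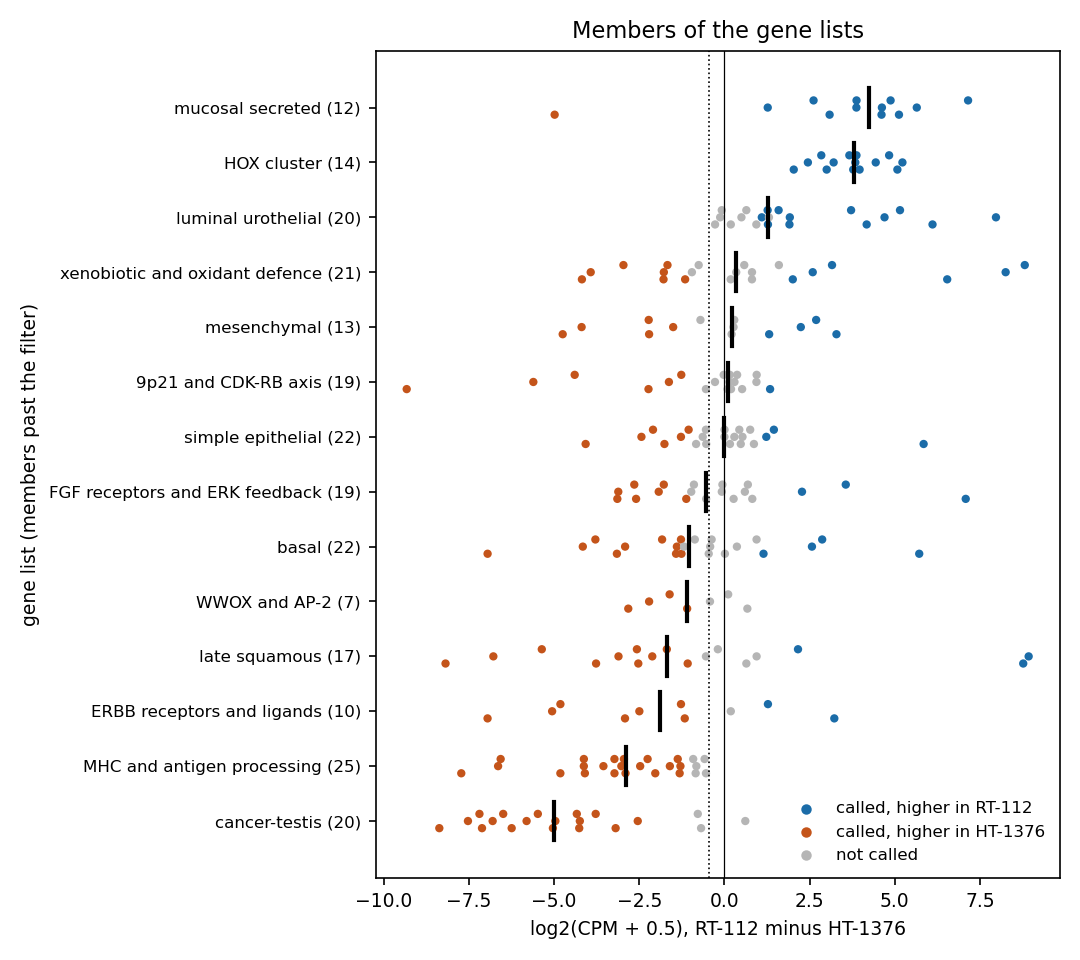
Log2 difference (RT-112 minus HT-1376) of each list member past the filter, 1 row per list described here with at least 5 members tested, ordered by the median (black bar). Blue and orange points are genes called higher in RT-112 and in HT-1376, grey points were not called, and the dotted line marks the median of all genes, −0.45. All 14 HOX genes past the filter lie to the right, and 17 of 20 cancer-testis genes are called to the left. The HOX genes other than HOXC13 passed the filter through RT-112 alone, and these 17 through HT-1376 alone.

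Genes of simple epithelia went both ways. Of the 22 listed, which were all tested, 3 were called higher in RT-112 and 6 in HT-1376 (5 and 4 with TMM). The counts of 3 and 6 are near the shares of all genes called, 11.1% and 29.4%. The median was 0.00, lay between −0.06 and 0.06 with any 1 variant left out and was 0.31 with TMM. EPCAM, the epithelial adhesion molecule, had means of 48.8 ± 13.6 and 42 ± 20.2 CPM (SD, n = 6) and CDH1, E-cadherin, 105 ± 17.3 and 109 ± 38.7 CPM, and neither was called. KRT7, a keratin of simple epithelia and urothelium, was abundant in both, with 10937, 11864 and 15560 CPM in RT-112 and 5108, 6990 and 8612 CPM in HT-1376, a difference of 0.87 (SE 0.15) that was called only with TMM, the tests on recovered reads or the variants with WWOX. The simple keratins KRT19 and KRT8 went apart. KRT19 had 6248, 6792 and 7910 CPM in RT-112 and 12.6, 165 and 378 CPM in HT-1376 (log2 difference 5.84, SE 0.54, limma adjusted p = 1.45e-05), whereas KRT8 had 201, 225 and 259 CPM and 787, 965 and 1181 CPM (log2 difference −2.10, SE 0.14, limma adjusted p = 2.42e-06). MUC1, a membrane mucin, was higher in HT-1376, with a log2 difference of −4.07 (SE 0.34).

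Genes of mesenchymal cells gave no common direction, with 4 of 13 tested called higher in RT-112 and 5 in HT-1376 among 23 listed. Their median was 0.21, and −0.10 without KK. VIM, vimentin, is listed at 0 in all 12 libraries. TWIST1, a factor of epithelial-to-mesenchymal transition, was at 0 throughout RT-112 and had 4.74, 12 and 26.4 CPM in HT-1376, with a mean of 15 CPM that was at least 90.4-fold above the limit, and COL1A2, a chain of collagen I, was likewise at 0 and had 1.49, 11.6 and 46.1 CPM. MMP2, a gelatinase, was higher in RT-112 (43.8, 70.9 and 156 CPM against 0.13, 14.3 and 38.2 CPM). Of 14 neuroendocrine genes 4 were tested and 2 were called, both higher in HT-1376, with a median of −1.73. CHGA, chromogranin A, was at 0 throughout RT-112 and had 1.71, 8.86 and 34.8 CPM in HT-1376, with a mean of 12.7 CPM that was at least 76.5-fold above the limit. Of the other cell type markers, LUM, the stromal proteoglycan lumican, was on in RT-112 only with 10.7, 12 and 14.3 CPM, and COL1A1 was not called.

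The secreted and surface proteins of mucosa that were tested were called higher in RT-112 with 1 exception. Of 23 listed 12 were tested, 11 were called higher in RT-112 and 1 in HT-1376, and the median difference was 4.24, or 4.54 with genes at 0 set to their limit. The summed CPM of these genes was 2734 to 3439 in RT-112 and 90.4 to 1749 in HT-1376. Of the 11 called higher in RT-112, only LCN2, SLPI and CEACAM1 reached 5 CPM in HT-1376 (at most 139, 1529 and 19.85 CPM). The others passed the filter through RT-112 alone, and the exception through HT-1376 alone, which largely set their direction. MUC20, a membrane mucin, had 117, 158 and 239 CPM in RT-112 and 0.17, 0.71 and 1.61 CPM in HT-1376 (log2 difference 7.15, SE 0.23, limma adjusted p = 2.2e-08). CEACAM5, the carcinoembryonic antigen, had 9.95, 21.5 and 27 CPM and was at most 0.22 CPM in HT-1376. AGR2, a disulfide isomerase that folds mucins, had 10.6, 20.5 and 62.3 CPM against 0.07, 0.275 and 1.15 CPM. The exception was WFDC2, a secreted whey acidic protein family member, with 0.06, 0.215 and 0.33 CPM in RT-112 and 2.89, 30.8 and 83.5 CPM in HT-1376 (log2 difference −4.98, SE 0.63, limma adjusted p = 0.000106).

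HOX genes, the homeobox factors that mark position along the body, were detected in RT-112. Of 39 listed, 6 are not in the table and 19 stayed under 5 CPM, and the 14 tested were called higher in RT-112, with a median of 3.81 (3.99 with TMM, and 3.86 with genes at 0 set to their limit). Their summed CPM was 187 to 202 in RT-112 and 3.81 to 19.1 in HT-1376, without overlap. Of the 14, only HOXC13 reached 5 CPM in HT-1376 (at most 6.39 CPM). The others passed the filter through RT-112 alone, so their shared direction was largely set by the filter. HOXB7 was the highest, with 45.9, 58.3 and 72.6 CPM in RT-112 and 0.33, 0.74 and 4.55 CPM in HT-1376 (log2 difference 5.22, SE 0.39, limma adjusted p = 4.06e-06). HOXD9 was at 0 throughout HT-1376 and had 14.5, 16.5 and 18.6 CPM in RT-112, with a mean of 16.4 CPM that was at least 88.7-fold above the limit. HOXB3 had 17.9, 19.9 and 24.9 CPM and HOXB6 10.5, 12.5 and 15.2 CPM, and these genes differed little among the RT-112 variants. In the 19 genes under the filter the highest library was 4.97 CPM (HOXB13 in RT-112), so that most HOX genes were low in both lines.

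Cancer-testis genes, which are normally restricted to germ cells, were found in HT-1376. Of 34 listed 20 were tested, 17 were called higher in HT-1376 and none in RT-112, with a median of −5.00, or −6.24 with genes at 0 set to their limit, and 11 were on in HT-1376 only. The size of this median depended on the test, at −8.40 with limma-voom, −9.45 with DESeq2 and −9.83 with edgeR on recovered reads and −3.15 with a pseudocount of 2 CPM. Their summed CPM was 774 to 1260 in HT-1376 and 83.2 to 189 in RT-112. Most of the sum in RT-112 was MAGED1 and MAGED2, with means of 63.6 and 59.5 CPM there. MAGEA1 had a mean of 1.73 CPM in RT-112, and every other tested member at most 0.387 CPM. Apart from MAGED1 and MAGED2, the tested members passed the filter through HT-1376 alone, which largely set their direction. MAGEA4 had 73.9, 90.8 and 133 CPM and MAGEA12 67.7, 80.3 and 95.8 CPM, even over the variants, while PAGE2 had 28.2, 108, 14.5, 153, 91.5 and 335 CPM in the order KK, KA, KC, WK, WA, WC. In RT-112 each of these had at most 0.22 CPM. MAGED1 and MAGED2, members of the MAGE family that most tissues express, were present in both lines and not called, although the libraries of MAGED2 did not overlap, at means of 63.6 and 40.6 CPM and of 59.5 and 102 CPM.

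Members of this family can be near-identical where transcripts start, which limits how their CPM can be read. The windows of MAGEA3 (chrX:152698544-152698793, plus strand) and MAGEA6 (chrX:152769690-152769939, minus strand) show this, with that of MAGEA4 (chrX:151912224-151912473, plus strand) for contrast, and capitals again mark motif matches.
MAGEA3: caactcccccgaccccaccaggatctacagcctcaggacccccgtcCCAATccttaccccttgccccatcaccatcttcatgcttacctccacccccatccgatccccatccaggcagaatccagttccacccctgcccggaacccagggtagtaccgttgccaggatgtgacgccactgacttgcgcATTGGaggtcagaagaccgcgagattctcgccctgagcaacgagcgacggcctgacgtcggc
MAGEA6: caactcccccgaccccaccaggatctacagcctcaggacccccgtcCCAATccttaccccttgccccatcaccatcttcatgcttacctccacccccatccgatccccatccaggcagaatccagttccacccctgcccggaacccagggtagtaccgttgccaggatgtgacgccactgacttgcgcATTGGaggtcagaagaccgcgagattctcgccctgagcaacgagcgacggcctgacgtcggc
MAGEA4: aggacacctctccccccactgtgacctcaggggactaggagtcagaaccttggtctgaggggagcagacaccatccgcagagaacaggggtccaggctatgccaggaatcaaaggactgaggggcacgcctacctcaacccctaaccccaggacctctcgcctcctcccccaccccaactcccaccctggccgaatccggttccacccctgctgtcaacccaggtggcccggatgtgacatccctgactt
The windows of MAGEA3 and MAGEA6 were identical at 250 of 250 bases, and CCAAT or its complement stands at 204 and 62 bases before the start of both. With the 50 bases after the start added, they were identical at 300 of 300 bases. MAGEA4 held none of the motifs. In HT-1376 MAGEA3 had 60.7, 62.2, 50.9, 39.1, 36 and 46.1 CPM and MAGEA6 68.4, 60.3, 47.2, 40.5, 37.3 and 47.1 CPM over KK, KA, KC, WK, WA and WC. Reads of 75 nt reach beyond these bases, where identity was not compared. Reads from such starts may not be assignable to 1 of these genes, so their separate values are uncertain. MAGEA3, which the naming rule did not pick, was named after its values were seen.

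Genes of antigen presentation were higher in HT-1376 or did not pass. Of 26 listed 25 were tested, 20 were called higher in HT-1376 and none in RT-112, with a median of −2.90 (−2.61 with TMM, when 18 were called, and −2.95 with genes at 0 set to their limit). Their summed CPM was 2810 to 3478 in RT-112 and 9211 to 16140 in HT-1376. Class I genes other than HLA-G were present in both lines, and HLA-F had 0.55, 1.1 and 3.56 CPM in RT-112 and 92.7, 212 and 327 CPM in HT-1376 (log2 difference −6.64, SE 0.26, limma adjusted p = 6.34e-08). HLA-G was on in HT-1376 only. The class II list was near 0 in RT-112 apart from HLA-DMA, which overlapped between the lines and was named after its values were seen. There CD74, the invariant chain, had 0, 0.185 and 1.15 CPM and HLA-DQB1 0, 0.055 and 0.36 CPM, against 12.6, 91.8 and 268 CPM and 2.17, 19.5 and 49.1 CPM in HT-1376. TAPBP and PSMB10, which load and cut peptides, overlapped between the lines and were not called, with differences of −0.58 (SE 0.14) and −0.54 (SE 0.14) close to the median of all genes. HLA genes share sequence, so reads may be divided among them.

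Receptor pathways differed in their members. Among 24 genes of FGF receptors and ERK feedback, 19 were tested. Of these, 3 were called higher in RT-112 and 7 in HT-1376, against 11.1% and 29.4% of all genes. With TMM the counts were 5 and 6. The median of −0.54 was −0.23 with TMM, −0.22 without KA and −0.0049 with quantile normalization. FGFR3, the FGF receptor of urothelium, had a median of 124 CPM and at most 156 CPM in RT-112 and at most 0.97 CPM in HT-1376, without overlap (log2 difference 7.08, SE 0.21, limma adjusted p = 1.39e-08). ETV4, an ETS factor that ERK induces, had 118, 134 and 202 CPM against 3.16, 15.2 and 18.6 CPM, while EGR1, an immediate early gene (1.68, 5.04 and 5.59 CPM against 11.5, 35.7 and 152 CPM), and the phosphatase DUSP4 (6.81, 12.9 and 16.3 CPM against 35.6, 73 and 105 CPM) were higher in HT-1376. TACC3, a mitotic spindle protein encoded beside FGFR3, did not overlap but differed by only 0.60 (SE 0.14) and was not called.

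Of 13 ERBB receptors and ligands 10 were tested, 2 were called higher in RT-112 and 7 in HT-1376 (2 and 5 with TMM), with a median of −1.88. The receptor ERBB2 was higher in RT-112, with 174, 185 and 223 CPM against 49.9, 85.8 and 99.9 CPM (log2 difference 1.28, SE 0.16, limma adjusted p = 9.06e-05), while EGFR was higher in HT-1376 (42.4 against 107 CPM, log2 difference −1.27). The 6 tested ligands of EGFR were called higher in HT-1376, although TGFA, like EGFR itself, was not called with TMM. Amphiregulin, AREG, had 3.16, 5.71 and 8.83 CPM in RT-112 and 68.3, 238 and 381 CPM in HT-1376 (log2 difference −5.05, SE 0.17, limma adjusted p = 2.73e-08), epiregulin, EREG, was on in HT-1376 only with 44.2, 64.1 and 87.5 CPM, and epigen, EPGN, likewise with 6.97, 16.1 and 37.6 CPM. AREG, EREG and EPGN lie near each other on chromosome 4. NRG2, a ligand of ERBB3, was the ligand higher in RT-112, with 2.42, 4.77 and 16.8 CPM against 0, 0.14 and 0.53 CPM. ERBB3 overlapped and was not called (0.19, SE 0.24).

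Around the cell cycle, 19 of 24 genes of the 9p21 locus and the CDK-RB axis were tested. Of these, 1 was called higher in RT-112 and 6 in HT-1376, against 11.1% and 29.4% of all genes. The median of 0.09 was −0.11 without KC. Besides the 3 genes of the locus, E2F3, an E2F activator, was higher in HT-1376, with 9.71, 13.8 and 14.8 CPM against 46.3, 63.5 and 90.8 CPM (log2 difference −2.23, SE 0.15, limma adjusted p = 1.84e-06). CDK4, the target of the CDKN2A product, had 213, 236 and 245 CPM and 151, 186 and 192 CPM (log2 difference 0.37, SE 0.11), without overlap but under the size needed for a call.

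Enzymes of xenobiotic and oxidant defence went both ways, with 6 of 21 tested called higher in RT-112 and 7 in HT-1376 among 27 listed (7 and 6 with TMM) and a median of 0.35. Besides ALDH1A3, GPX2 and ALDH3A1, the cytochrome CYP4B1 was higher in RT-112, with 4.3, 9.37 and 19.8 CPM against 0.23, 0.58 and 1.56 CPM (log2 difference 3.16, SE 0.23, limma adjusted p = 3.4e-06). CYP24A1, which degrades vitamin D, and CYP1B1, which is induced by aromatic hydrocarbons, were higher in HT-1376, with 2.5, 10.2 and 33 CPM and 2.17, 13.8 and 19.6 CPM against at most 0.12 and 0.45 CPM. GSTP1, the most abundant glutathione transferase of the list, differed by 0.81 (SE 0.18) and was called only with TMM, the tests on recovered reads or the variants without WWOX. Of 11 genes of WWOX, AP-2 and their partners 7 were tested and 4 were called higher in HT-1376 (3 with TMM), with a median of −1.09. These included TFAP2A (log2 difference −1.61, SE 0.15, limma adjusted p = 1.31e-05) and the AP-2 coactivators CITED4 (22.7, 32.4 and 40.5 CPM against 172, 216 and 359 CPM) and CITED2 (11.7, 14.3 and 16.5 CPM against 37.9, 49.5 and 194 CPM). TFAP2C (−0.42, SE 0.32) and WWOX (0.11, SE 0.15) were not called. In such bulk samples fewer cells with a transcript and less of it per cell cannot be told apart for any of these genes.

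Whether the difference between the lines was the same with and without WWOX was asked with a fit of line, WWOX and AP-2 state over the same 12 libraries. The line difference changed between the libraries without and with WWOX for 1273 genes (10.9%) at an adjusted p under 0.05. RT-112 minus HT-1376 was larger in the WWOX libraries for 767 of these genes and smaller for 506. The libraries that differ were mostly those of HT-1376, where the WWOX and other libraries were further apart than in RT-112 for 87.6% of these genes, against 67.3% of all genes tested. The count of 1273 rests on few libraries, since it was 97 without KA, 237 without KK, 323 without WC, 337 without WA and 508 without WK. The WWOX libraries of a line share a transduced population, so an effect of WWOX itself cannot be told apart from that population here. The CPM of WWOX was not raised in these libraries, but a vector transcript need not start at the native promoter. The paper states that WWOX and the AP-2 factors were blotted as proteins to check the transductions. FOXE1, a forkhead factor, had 0.06 to 0.21 CPM without and 16.7 to 36.2 CPM with WWOX in HT-1376 and at most 0.53 CPM in RT-112, and its line difference changed by −5.39 (SE 0.47, limma adjusted p = 0.00138). SPRR2A, a precursor of the cornified envelope, had 0 to 2.69 and 31.6 to 67.9 CPM in the same libraries, a change of −5.42 (SE 0.65, limma adjusted p = 0.00379). RAET1G, a ligand of the NKG2D receptor of lymphocytes, was lower than in RT-112 without WWOX (a line difference of 1.01) and higher with it (−1.50).

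In the opposite direction, the actin-binding proteins LIMA1 and SCIN were lower in the WWOX libraries of HT-1376. LIMA1 had 76.6 to 119 CPM without and 11.4 to 21.6 CPM with WWOX in HT-1376 and 10.8 to 16.5 CPM in RT-112, and its line difference changed by 2.75 (SE 0.22, limma adjusted p = 0.00106). SCIN had 50.3 to 73.7 and 1.95 to 5.43 CPM, a change of 4.07 (SE 0.37, limma adjusted p = 0.00147), and the glutathione transferase GSTM3 had 64.7 to 72.3 and 5.7 to 11.5 CPM, a change of 3.16 (SE 0.33, limma adjusted p = 0.00282). S100A2, a calcium-binding protein of basal cells, was called between the lines but rested on this split. It had 3298 to 7574 CPM in RT-112, and in HT-1376 23.2 to 259.7 CPM without and 3357 to 4599 CPM with WWOX. Its line difference of 2.87 (SE 0.94) was 5.42 without and 0.32 with WWOX, and it was not called without KA or without KC. For KRT14 the change was −0.01 (SE 0.36) and for TFF1 −0.05 (SE 0.37), neither past the threshold.

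**Figure D5:**
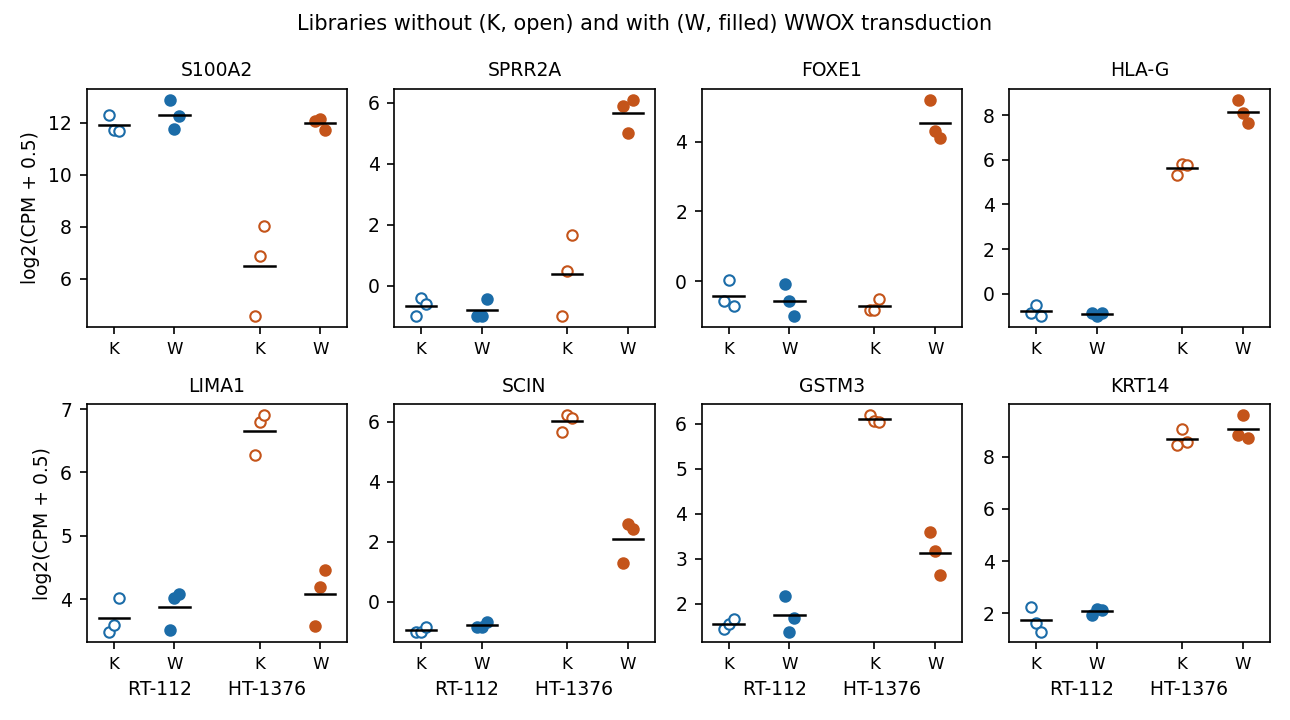
Level of 8 genes in each library as log2(CPM + 0.5), with RT-112 in blue and HT-1376 in orange, libraries without WWOX (K, open) and with WWOX (W, filled), and the mean of 3 libraries as a bar. In HT-1376 the open and filled points of S100A2, SPRR2A, FOXE1, HLA-G, LIMA1, SCIN and GSTM3 are apart, and those of KRT14 are not, while the RT-112 points lie close together in each panel.

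Selecting libraries on WWOX, a choice made after the data were seen, gave the following list medians. The luminal list had a median of 0.88 without and 1.71 with WWOX, the mucosal list 4.26 and 4.16, the HOX list 3.89 and 3.57, the cancer-testis list −5.65 and −4.98, and the list of antigen presentation −2.35 and −3.01. The neuroendocrine list had −1.07 without and −3.60 with WWOX and the late squamous list −0.25 and −3.13, over members past the filter that differed in number between the selections. The median of the mesenchymal list changed sign, from 0.26 without WWOX (10 members tested) to −0.27 with WWOX (13 members tested). So did those of the simple epithelial list, from −0.21 to 0.11, and of 9p21 and the CDK-RB axis, from −0.15 to 0.08. The medians of the lists that changed sign all lay above the median of all genes over the 12 libraries, −0.45. The median of all genes within each selection is not given here, so a change of direction against it was not tested. The xenobiotic list was below 0 in both selections (−0.07 and −0.39) against 0.35 over all 12 libraries.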

How the data were processed

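CAGE-seq was done on 18 libraries, of which the 6 of RT-112 and the 6 of HT-1376 were used, with the line and variant of each taken from the labels. Per the study's methods the authors aligned 75 nt reads to hg38 with BWA and then HISAT2 (version 2.0.5 in the submitters' processing notes) and built start site clusters with Paraclu and RECLU, filtered by irreproducible discovery rate. How clusters were assigned to genes is not given in the sources used here. The deposited values are CPM per gene, set by the authors against a library total that exceeds the reads on these genes, so that the 12 libraries sum to 937919 to 947110 CPM over the table. A symbol and a position of GENCODE 44 were found for 16553 of the 16575 genes. The values were whole multiples of 1 read (0.0526 to 0.0709 CPM) within 0.0051 CPM for 99.80% to 99.98% of values in a library (16.6% to 22.8% with a wrong step), so reads could be recovered. Depth was 13357102 to 17958572 reads on genes.

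Genes that reached 5 CPM in any of the 12 libraries were tested with limma 3.58.1 (R 4.3.3) on log2(CPM + 0.5), with trended variance and the variant as a block, and were called at a Benjamini-Hochberg adjusted p under 0.05 and a log2 difference beyond 1. The pseudocount makes the log2 difference of low genes too small. A second fit took line, WWOX, their interaction and AP-2 state. Alternatives were other pseudocounts and filters, TMM and quantile scaling, limma-voom, edgeR 4.0.16 and DESeq2 1.42.0 on recovered reads, all 18 libraries, no block, and each variant left out. The study's methods name limma with voom and mention no block. On simulated counts of 10616 genes with known changes, calls were made at the adjusted p alone, without the log2 limit used for the data. The line fit then called 95 of 100 genes changed by a log2 of 1 and 100 of 100 changed by 2. Of 10416 unchanged genes it called 10. The median estimate for a true log2 of 1 was 0.919, which is under the log2 limit of 1. The simulation gave every gene and library the same relative spread, whereas correlations among the HT-1376 libraries were lower than among those of RT-112.

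The comparison, its members and its lists were chosen with earlier results of these data known. Named were TFF1 and CDKN2A, the transduced genes, the 10 highest genes on in either line only, the 10 largest non-overlapping differences per direction, up to 4 called members per direction and 2 not called of each list, and up to 5 genes per direction in the WWOX fit with the smallest p. Not all are printed, and some genes and 1 list are not reported here. Sequences are from RefSeq windows on GRCh38.p14. Fewer than 80% of genes in the compared sets had a window, so motif shares were not compared between them.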

Additional observations from a re-analysis of the deposited data

Results flagged for a closer look

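In 4 of the 49 groups of 6 libraries examined, 1 library stood apart by Dixon's criterion, which chance gives in about 1 of 20 groups. TFF1 was 46.6 CPM in RT-112 WK, against 23.1 to 29.4 CPM in the other RT-112 libraries. TFAP2A was 46.8 CPM in RT-112 KA, the AP-2α variant, VILL was 146 CPM in RT-112 WC, and GTSF1 was 72.0 CPM in HT-1376 KC.

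The difference between the lines changed between the libraries without and with WWOX for 1273 genes by the interaction test. WWOX and the population that carries it cannot be told apart. Among the genes with the smallest p, RT-112 minus HT-1376 was larger with WWOX by 2.75 for LIMA1, 4.07 for SCIN, 4.09 for CYRIA, 3.16 for GSTM3 and 2.33 for ABTB1 on the log2 scale. The change was −5.39 for FOXE1, −2.51 for RAET1G, −3.24 for CXCL6, −2.33 for TMEM35B and −5.42 for SPRR2A.

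In data outside the comparison, 134 of the 138 genes on in HT-1376 only had at least 5 CPM in the library labelled CAL-29 KC.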

How the results depend on the processing

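The split of calls depends on scaling. With DESeq2 on recovered reads 2067 genes were called higher in RT-112, and with quantile normalization 1984 were called higher in HT-1376, against 1293 and 3436 as reported. With 1 variant left out these counts ranged from 1240 to 1321 and from 3170 to 3661. Libraries of the same variant deviated together little (r from −0.0565 to 0.168), and only for KA did the same variant give the highest r. Without the replicate block 1287 and 3425 genes were called. Genes on in RT-112 only, 64 as reported, were 31 with the other line under 0.2 CPM, 102 under 1 CPM, 133 with at least 2 CPM, 154 by line means and 118 in the variants without WWOX, the last chosen after seeing the data. Genes on in HT-1376 only, 138 as reported, were 282 with at least 2 CPM, 78 with at least 10 CPM, 401 by line means, and 225 without and 238 with WWOX. The count of 1273 genes whose line difference changed between the libraries without and with WWOX ranged from 97 without KA to 1263 without KC. Of these, 97 and 885 were among the 1273. Of 146 named genes, 114 kept direction and call in every alternative. CYRIA reversed to 2.02 within the WWOX variants and RAET1G to 1.01 without WWOX, from −0.03 and −0.25, neither called as reported. Some list medians kept their sign but ranged widely over the alternatives, from −3.15 to −9.83 for the cancer-testis, 2.96 to 7.75 for the mucosal and −1.67 to −4.14 for the MHC list. The causes were not tested. With 1 library per line and variant, depth limits only genes near 3 reads, and differences smaller than the spread among variants of HT-1376 are not resolved.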
